A study of Mus musculus with 28 samples.

Results

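The 9 genes described here encode the carriers that move bile acids, phospholipid and organic anions out of the hepatocyte: Abcb11, Abcb4, Abcc2, Abcc3, Abcc4, Slc51a, Slc51b, Atp8b1 and Abcg2. They were taken by gene symbol as a group of transporters, with earlier results of these data known, and all 9 were found among the 47719 genes listed in each of 10 deposited comparisons. Liver RNA was sequenced from 28 male C57BL/6 mice in 7 groups of 4. Mice of all 7 groups were aged about 6 weeks at the start. In 6 groups they were fed for 26 weeks on chow of 40% fat by calories with 22% fructose and, by weight, 2% cholesterol, which brings on nonalcoholic steatohepatitis (NASH, fatty liver with inflammation and scarring). Of these, 1 group then received obeticholic acid (OCA) at 25 mg/kg, and the groups named low, mid and high received tropifexor (LJN452), read here as 0.1, 0.3 and 0.9 mg/kg in rising order, as nothing in the labels ties a dose to a name. Dosing was by mouth, once a day for 4 weeks. OCA and tropifexor each had their own vehicle group on the NASH diet, a reading that rests on the sample titles because their treatment labels name the drug. The lean control group was fed 10% fat by calories and neither fructose nor cholesterol. All groups were whole liver of 1 strain and sex, and each table holds 1 value per group and none per animal.

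Bile is formed when hepatocytes pump solutes across the canalicular membrane. Abcb11 (the bile salt export pump, BSEP) moves conjugated bile acids, Abcb4 (Mdr2) moves phosphatidylcholine to the outer leaflet so that bile acids can carry it off, and Atp8b1 (FIC1) keeps the canalicular membrane ordered by flipping phospholipid inward. Abcc2 (Mrp2) exports glucuronide and glutathione conjugates, and Abcg2 (BCRP) exports sulfated and other organic anions. On the opposite, blood-facing membrane, Abcc3 (Mrp3), Abcc4 (Mrp4) and the heterodimer of Slc51a and Slc51b (OST alpha and OST beta) return bile acids to the circulation. FXR, encoded by Nr1h4, is the nuclear receptor that senses bile acids, and Abcb11, Abcb4 and both OST genes are known among its targets. OCA and tropifexor are FXR agonists, OCA being made from a bile acid and tropifexor being without a bile acid structure.

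Levels are given as FPKM (fragments scaled to transcript length and library size), a scale that allows genes to be set side by side. In the authors' deposited table of high-dose tropifexor over vehicle, the highest level was that of Abcb11, with 662 FPKM in treated and 149.9 FPKM in vehicle liver. Abcb4, Slc51b and Abcc2 followed in treated liver at 242, 222 and 143 FPKM in the authors' deposited table, where vehicle liver had 103, 3.28 and 114 FPKM of the same genes. Slc51b thus stood below Atp8b1 in vehicle liver (6.51 FPKM in the authors' deposited table) and near Abcb4 in treated liver. The 2 lowest were Abcc4, with 0.576 FPKM in treated and 0.721 FPKM in vehicle liver, and Slc51a, with 0.0304 FPKM in treated liver and listed at 0 in vehicle liver by the authors' deposited table. No spread between animals is attached to a level, so neighbours in this order were not tested.

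**Figure D1:**
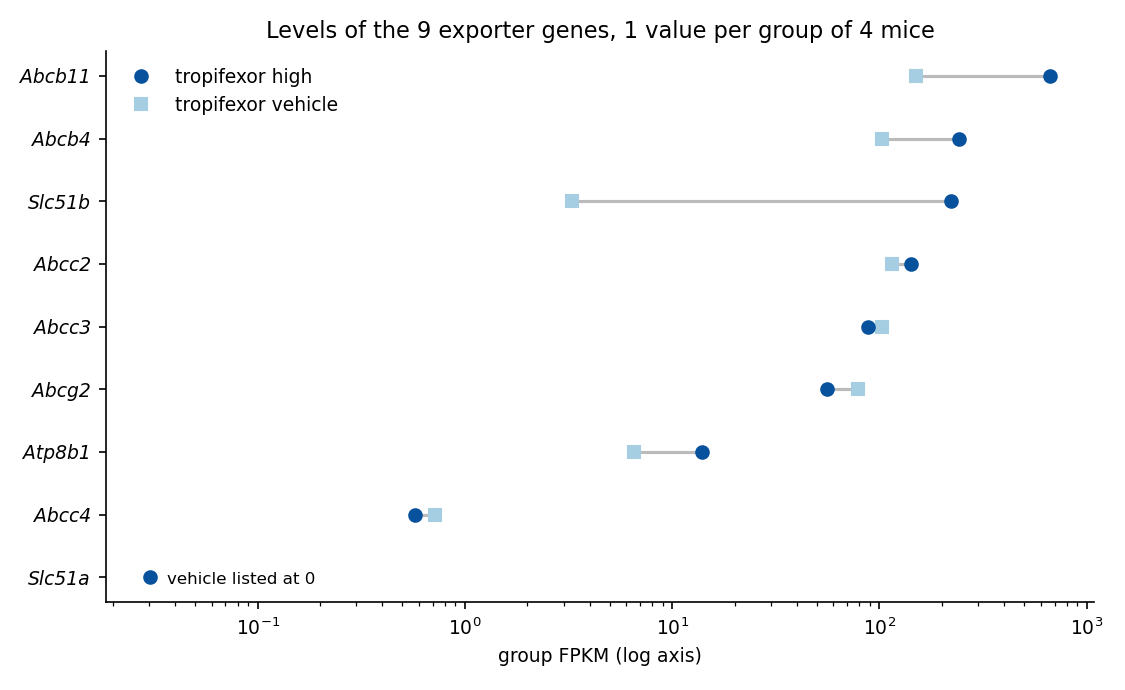
Group FPKM (log axis) of the 9 exporter genes in high-dose tropifexor liver (circles) and tropifexor vehicle liver (squares), 1 value per group of 4 mice from the authors' deposited table. Slc51b spans 222 FPKM in treated and 3.28 FPKM in vehicle liver, the widest gap among genes with a level in both, while its partner Slc51a lies at 0.0304 FPKM in treated liver and is listed at 0 in vehicle liver.

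The hepatocyte gene albumin (Alb) had between 30921 and 57975 FPKM in every group and table. Of 5 pancreas markers, Prss1 and Pnlip were listed at 0 throughout and Cpa1 had at most 0.00359 FPKM, while Cela1 had 7.25 FPKM in OCA vehicle and 18.8 FPKM in lean liver and was called lower there, and Ctrb1 had 0.554 FPKM in OCA vehicle and 3.35 FPKM in lean liver without a call, in the authors' deposited table. Their part in the exporter values was not tested. A gene was called when its deposited q-value (Cuffdiff's p adjusted over the tested genes) was under 0.05. The rescaled SE printed beside a log2 fold change is derived from the deposited test statistic and p. In whole liver, fewer cells of a type and less RNA per cell cannot be told apart. The depth of each library is unknown, and errors were wider in the low-dose comparison, where the median rescaled SE of all genes was 0.307 while the mid-dose and high-dose comparisons with vehicle had 0.230 and 0.232.

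The NASH diet was asked about first, by setting each vehicle group against lean control. The phospholipid carrier Abcb4, the basolateral carrier Abcc3 and the anion exporter Abcg2 rose in both vehicle groups, all by less than 2-fold, while the bile salt pump Abcb11 had lower values without a call. With OCA vehicle 5 of 8 tested exporters were called higher and 0 lower by Cuffdiff, against 11.4% and 6.56% of all 15774 tested genes, and at an unadjusted p under 0.05 the counts were 5 and 1. In the tropifexor vehicle group 3 were called higher and 1 lower, against 12.1% and 8.53% of 15484 tested genes. The median log2 fold change over the 8 exporters was 0.52 with OCA vehicle and 0.45 with tropifexor vehicle, where the median of all tested genes was 0.02 and 0.01. Of 5 tested hepatocyte markers 0 were called in OCA vehicle liver, and 0 higher and 3 lower in tropifexor vehicle liver. Their median log2 fold change was -0.57 in each comparison. In sum they had 46611 FPKM in OCA vehicle and 71802 FPKM in lean liver. In the other comparison they had 42770 FPKM in tropifexor vehicle and 72175 FPKM in lean liver. Their part in the exporter values was not tested.

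Abcg2 had 69.0 FPKM in OCA vehicle liver and 44.7 FPKM in lean liver, and 76.0 FPKM in tropifexor vehicle liver and 45.0 FPKM in lean liver, in the authors' deposited table of each comparison. Its rises in the authors' deposited table were 0.63 in OCA vehicle liver (log2, rescaled SE 0.160, Cuffdiff q = 0.0011) and 0.76 in tropifexor vehicle liver (SE 0.167, q = 0.000507). The rises of Abcc3 were 0.66 in OCA vehicle liver (Cuffdiff q = 0.00607) and 0.61 in tropifexor vehicle liver (q = 0.0189), from the authors' deposited table. Those of Abcb4 were 0.42 in OCA vehicle liver (Cuffdiff q = 0.0211) and 0.62 in tropifexor vehicle liver (q = 0.000507), likewise from the authors' deposited table. Lean liver was below both NASH vehicle groups for each of these 3 genes.

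Abcb11 had 140.1 FPKM in OCA vehicle liver and 199.6 FPKM in lean liver in the authors' deposited table, a log2 fold change of -0.51 (Cuffdiff q = 0.156). In the tropifexor vehicle group it had 144 FPKM, and lean liver 200.6 FPKM, a log2 fold change of -0.47 (Cuffdiff q = 0.237) in the authors' deposited table. The 2 values were alike, and neither passed the test.

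Slc51b and Abcc4 were called in the OCA vehicle group and Atp8b1 in the tropifexor vehicle group. Slc51b had 3.50 FPKM in OCA vehicle and 1.72 FPKM in lean liver (rise of 1.03, Cuffdiff q = 0.00982), and 3.16 FPKM in tropifexor vehicle and 1.73 FPKM in lean liver (0.87, q = 0.0535), in the authors' deposited table. Abcc4 had 1.06 FPKM in OCA vehicle and 0.570 FPKM in lean liver (rise of 0.89, Cuffdiff q = 0.000588), and 0.697 FPKM in tropifexor vehicle and 0.573 FPKM in lean liver (0.28, q = 0.311), in the authors' deposited table. Atp8b1 fell by 0.37 (Cuffdiff q = 0.0182) in tropifexor vehicle liver and stood at -0.09 (q = 0.776) in OCA vehicle liver in the authors' deposited table. The difference between the diet effects themselves, tropifexor vehicle minus OCA vehicle, was called for 0 of 8 exporters by the normal test, where 0.0986% of 15217 genes were called with implied and 0.381% with rescaled errors. No exporter reached an unadjusted p under 0.05 in that test, and 1 did (Abcc4) with rescaled errors. For Abcc4 the difference was -0.61 with a 95% interval of -1.54 to 0.33, and for Atp8b1 it was -0.29 with an interval of -0.98 to 0.40.

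**Figure D2:**
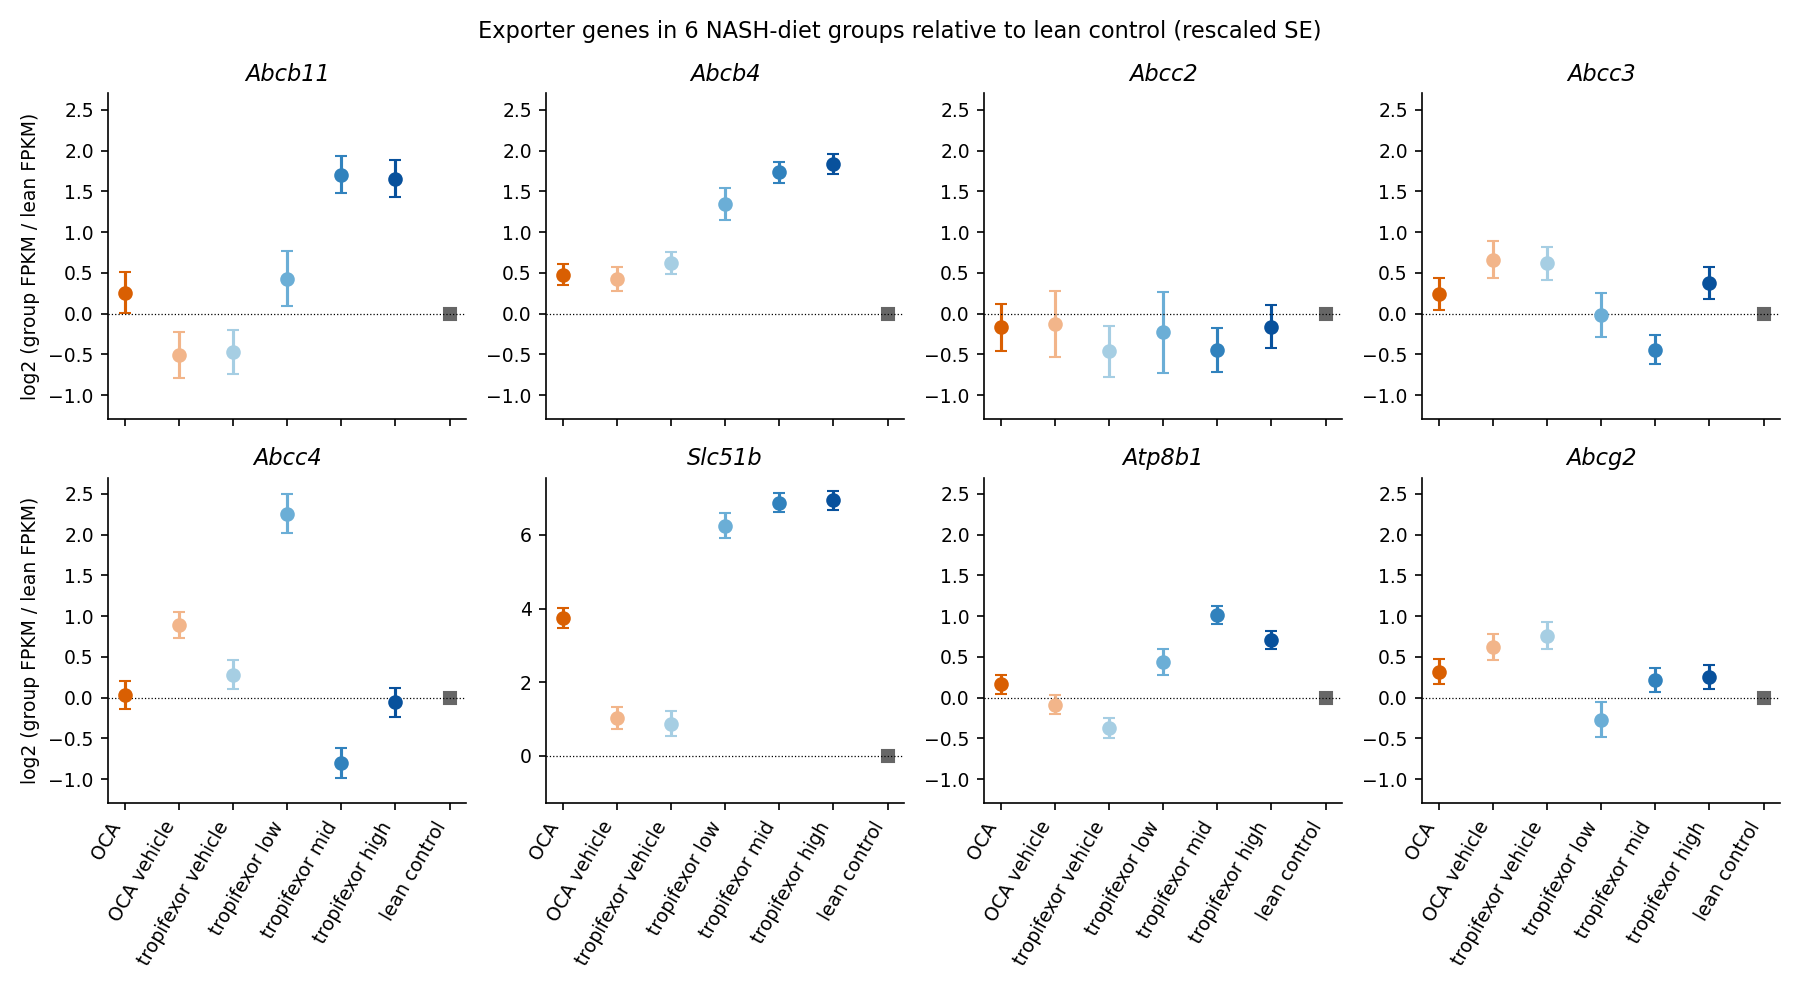
Log2 of each group's FPKM over the lean control FPKM of the same table (lean at 0, grey square) for 8 exporter genes, with the rescaled SE of each fold change as bars. Slc51b, on its own axis, reaches 6.94 at the high dose of tropifexor. Abcb11 lies below 0 in both vehicle groups and at 1.65 at the high dose, and Abcc4 peaks at the low dose.

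The effect of tropifexor was asked by setting each dose against its NASH vehicle group. Slc51b, the phospholipid carrier Abcb4 and the flippase Atp8b1 rose at all 3 doses, Abcb11 rose at the mid and high doses, and Abcg2 fell at all 3. At the low dose 4 of 8 tested exporters were called higher and 1 lower, against 6.03% and 5.2% of all 16144 tested genes. At the mid dose 4 were higher and 3 lower, against 11.8% and 15.7% of 15686 tested genes, and at the high dose 4 were higher and 1 lower, against 9.93% and 15.5% of 15818. The median log2 fold change over the 8 exporters was 0.77, 0.57 and 0.71 at the low, mid and high dose, while that of all tested genes was 0.00, -0.01 and -0.05. The 3 comparisons share the vehicle group, and members were chosen as a group of transporters, so these counts are a description of the list.

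Slc51b, the smaller subunit that OST alpha needs to reach the membrane, had the largest fold changes among the exporters. At the low dose it had 150.3 FPKM in treated and 3.60 FPKM in vehicle liver, at the mid dose 203 FPKM in treated and 3.15 FPKM in vehicle liver, and at the high dose 222 FPKM in treated and 3.28 FPKM in vehicle liver, in the authors' deposited table of each. These are 41.7-fold, 64.4-fold and 67.7-fold rises (log2 5.38, 6.01 and 6.08, rescaled SE 0.318, 0.249 and 0.256, Cuffdiff q = 0.000968, 0.000361 and 0.000396) in the authors' deposited table. Every tropifexor group was far above its vehicle group, and the steps between doses were small beside that gap.

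Slc51a, the other subunit, was never tested. Across the 10 comparisons in the authors' deposited table it had at most 0.0304 FPKM, the value at the high dose of tropifexor, and the low and mid doses had 0.0113 and 0.0088 FPKM where the same vehicle group was listed at 0. Messenger RNA for OST beta was thus counted at up to 222 FPKM in livers where that for OST alpha was at most 0.0304 FPKM.

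Slc51b shares its deposited locus, chr9:65398488-65422773 on GRCm38, with Rasl12, a gene on the opposite strand. Rasl12 had 0.727, 1.02 and 1.04 FPKM at the low, mid and high dose and between 0.131 and 0.150 FPKM in vehicle liver in the authors' deposited table, and it was called higher at the mid and high doses. Its level was a small share of that of Slc51b. Likewise Gm13613, annotated antisense to Abcb11, had 0.704, 1.10 and 0.802 FPKM at the 3 doses and at most 0.0595 FPKM in vehicle liver in the authors' deposited table, and was called at the mid dose. The strand setting of the counting is not stated in the sources at hand, so reads of these genes and of their partners may not be told apart.

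Abcb11 stood at 308 FPKM in low-dose and 165 FPKM in vehicle liver, 653 FPKM in mid-dose and 144 FPKM in vehicle liver, and 662 FPKM in high-dose and 149.9 FPKM in vehicle liver, in the authors' deposited table. At the mid and high doses it rose 4.54-fold and 4.42-fold (log2 2.18 and 2.14, rescaled SE 0.288 and 0.286, Cuffdiff q = 0.000361 and 0.000396) in the authors' deposited table. The low-dose fold change was 0.90 (SE 0.394, Cuffdiff q = 0.154) in the authors' deposited table, and did not pass. The mid-dose and high-dose levels were close together, with the low dose between them and vehicle.

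Abcb4 had 187 FPKM in low-dose and 113 FPKM in vehicle liver, 215 FPKM in mid-dose and 98.8 FPKM in vehicle liver, and 242 FPKM in high-dose and 103 FPKM in vehicle liver, in the authors' deposited table. It rose by 0.73, 1.12 and 1.23 (log2, rescaled SE 0.220, 0.156 and 0.152, Cuffdiff q = 0.00601, 0.000361 and 0.000396) at the low, mid and high dose in the authors' deposited table. Each tropifexor group lay above its vehicle group.

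Atp8b1 had 12.6 FPKM in low-dose and 7.16 FPKM in vehicle liver, 16.5 FPKM in mid-dose and 6.26 FPKM in vehicle liver, and 14.0 FPKM in high-dose and 6.51 FPKM in vehicle liver, in the authors' deposited table. The rises were 0.82, 1.40 and 1.10 (log2, rescaled SE 0.170, 0.129 and 0.126, Cuffdiff q at most 0.000968) in the authors' deposited table. Tmem30a, the beta subunit that Atp8b1 needs to leave the endoplasmic reticulum, stood at -0.22, 0.05 and -0.12 with no call in the authors' deposited table.

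FXR binds as a heterodimer with RXR to an inverted repeat of AGGTCA with 1 base between, here AGGTCANTGACCT. Promoter sequence was searched because Slc51b and Abcb11 rose most, in the 250 bases before each RefSeq start site on GRCm38.p6, on both strands (the motif reads the same on each). A window was given for 7 of the 9 genes. The stretches before the RefSeq start sites of Abcb11 (chr2:69342617-69342866, minus strand) and Slc51b (chr9:65422948-65423023, minus strand, the part farthest upstream) are shown 5′ to 3′ with the closest match to the motif in capitals. The Slc51b match begins 187 bases before the RefSeq start site. Only the first 68 bases of that stretch lie before every annotated start, so the end of the match lies within an annotated transcript.
Abcb11: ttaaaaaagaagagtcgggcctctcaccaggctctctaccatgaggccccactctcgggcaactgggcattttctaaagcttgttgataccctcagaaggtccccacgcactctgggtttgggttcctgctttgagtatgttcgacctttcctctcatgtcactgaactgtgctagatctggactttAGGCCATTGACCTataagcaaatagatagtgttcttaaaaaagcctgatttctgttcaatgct
Slc51b: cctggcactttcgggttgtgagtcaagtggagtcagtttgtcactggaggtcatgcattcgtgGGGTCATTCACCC

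The closest matches of 5 genes are set under each other, with capitals where a base equals that of the motif, to show genes that rose beside Abcg2, which fell, and Slc51a, which was not tested.
Abcb11: AGGcCATTGACCT
Slc51b: gGGTCATTcACCc
Slc51a: AGGaCtTTGtCCT
Abcb4: tGGTtgTTGAaCT
Abcg2: AGGTCAGcGcCtT

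The Abcb11 window holds a match with 1 mismatch that begins 63 bases before the start site, and 0.0791% of 32851 mouse promoter windows hold one as good. The matches of Slc51b, Slc51a and Abcg2 (the best of its 3 windows) have 3 mismatches, a score as good in 9.63% of windows. Those of Abcb4, Abcc2 and Abcc4 (its first window) have 4, as in 50.0%. The other windows of Abcg2 have 5 mismatches, as in 96.4%, and the second window of Abcc4 has 6. These shares are per window, so they understate how often the best of several windows scores as well. An exact single AGGTCA copy stands in windows of Abcb11, Slc51b, Slc51a, Abcc2 and Abcg2, and 14.0% of all windows hold one. A match is a description of the letters in this window, and elements farther away were not searched.

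Of the canalicular exporters of conjugates and organic anions, Abcg2 fell at each dose and Abcc2 was not called. Abcc2 had 148 FPKM in low-dose and 126 FPKM in vehicle liver, 112 FPKM in mid-dose and 109.99 FPKM in vehicle liver, and 143 FPKM in high-dose and 114 FPKM in vehicle liver, in the authors' deposited table. Its log2 fold changes of 0.23, 0.02 and 0.32 carried 95% intervals of -0.73 to 1.19, -0.56 to 0.60 and -0.27 to 0.91 (Cuffdiff q = 0.784, 0.971 and 0.343) in the authors' deposited table. It was called in 0 of 10 comparisons by Cuffdiff, with 2 of the 10 lower and 0 higher at an unadjusted p under 0.05. The intervals rest on the rescaled SE, which for this gene can be wider than its deposited p implies. In tropifexor vehicle over lean liver the interval was -1.08 to 0.15, while the Cuffdiff p was 0.0484 before adjustment. A missing call does not show that Abcc2 was unchanged.

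Abcg2 had 42.5 FPKM in low-dose and 86.7 FPKM in vehicle liver, 52.1 FPKM in mid-dose and 75.7 FPKM in vehicle liver, and 56.1 FPKM in high-dose and 78.8 FPKM in vehicle liver, in the authors' deposited table. Its log2 fold changes were -1.03, -0.54 and -0.49 (rescaled SE 0.229, 0.171 and 0.167, Cuffdiff q = 0.000968, 0.00912 and 0.0167) in the authors' deposited table. The diet had raised Abcg2, and tropifexor groups lay below their vehicle group at each dose.

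**Figure D3:**
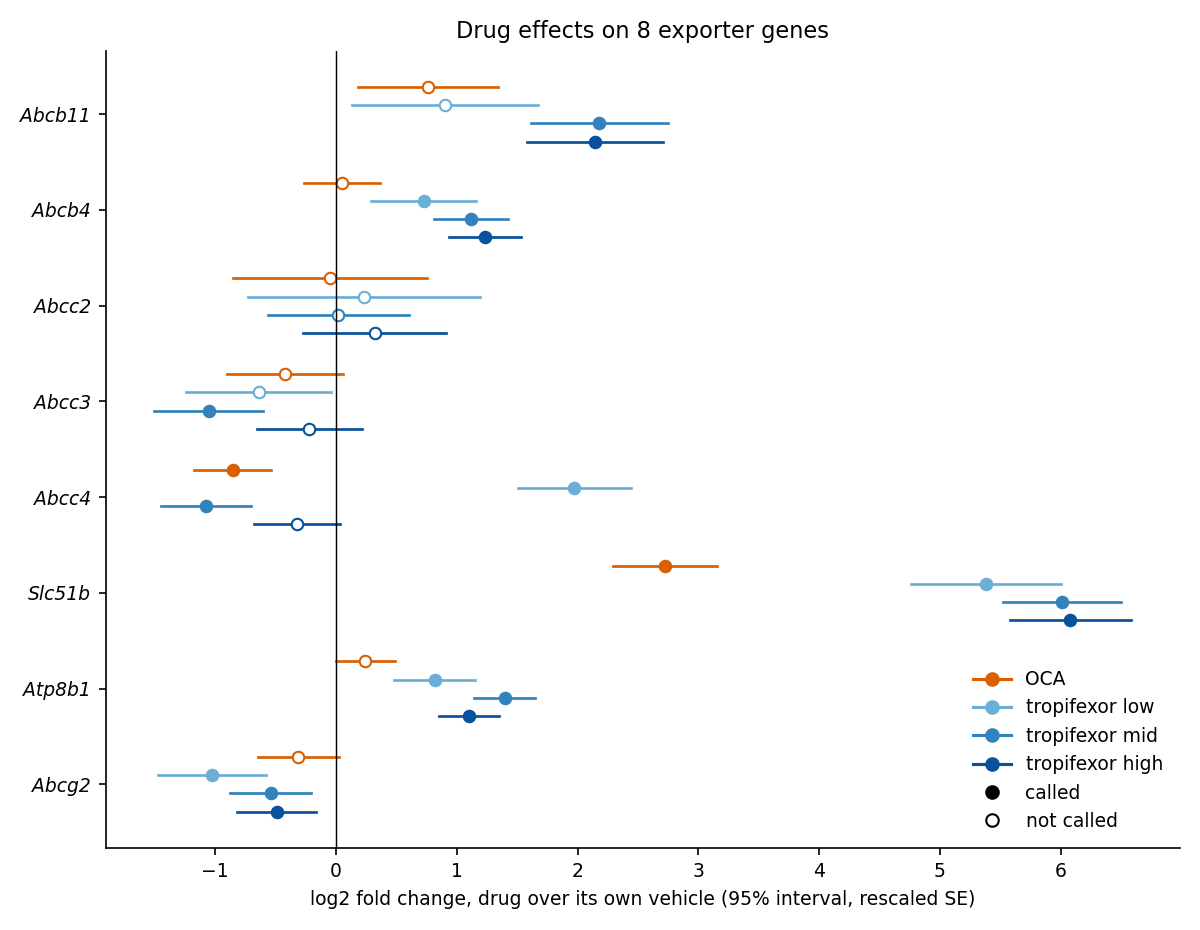
Log2 fold change of 8 exporter genes in each drug group over its own vehicle group, with 95% intervals from the rescaled SE; filled points were called (deposited q under 0.05) and open points were not. Slc51b lies at 2.72 for OCA and between 5.38 and 6.08 for tropifexor, Abcg2 lies below 0 in all 4 rows, and Abcc4 is the gene whose tropifexor points lie on both sides of 0.

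The basolateral multidrug carriers did not follow Slc51b. Abcc3 had 72.7 FPKM in low-dose and 113 FPKM in vehicle liver, 47.8 FPKM in mid-dose and 99.0 FPKM in vehicle liver, and 88.4 FPKM in high-dose and 103 FPKM in vehicle liver, in the authors' deposited table. It fell by 1.05 (log2, rescaled SE 0.230, Cuffdiff q = 0.00128) at the mid dose, and stood at -0.64 (q = 0.0733) at the low and -0.22 (q = 0.555) at the high dose, in the authors' deposited table. All 3 values were below 0, the mid-dose value alone being called.

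Abcc4 moved in opposite directions at neighbouring doses. It had 3.11 FPKM in low-dose and 0.792 FPKM in vehicle liver, 0.329 FPKM in mid-dose and 0.693 FPKM in vehicle liver, and 0.576 FPKM in high-dose and 0.721 FPKM in vehicle liver, in the authors' deposited table. It rose by 1.97 (log2, rescaled SE 0.239, Cuffdiff q = 0.000968) at the low dose, fell by 1.08 (SE 0.190, q = 0.000361) at the mid dose and stood at -0.32 (SE 0.183, q = 0.216) at the high dose, in the authors' deposited table. Of all its groups, only low-dose liver passed 2 FPKM.

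Values of other genes are given beside those of Abcc4. Of 7 cholangiocyte markers, the bile duct cell genes, 3 (Epcam, Krt19 and Sox9) were called higher and 0 lower at the low dose, where 6.03% of all tested genes were higher and 5.2% lower, and the summed level of the list was 41.8 FPKM in low-dose and 29.9 FPKM in vehicle liver. At the mid dose the sum was 23.2 FPKM in treated and 26.1 FPKM in vehicle liver with 0 called higher and 1 lower, and at the high dose 25.9 FPKM in treated and 27.2 FPKM in vehicle liver with 0 called. Abcc12, a relative of Abcc4, rose by 1.69 at the low dose and fell by 2.21 at the mid dose in the authors' deposited table, and stood at -0.49 at the high dose. Of the Nrf2 targets, genes of the antioxidant response, 4 of 8 were called higher and 0 lower at the low dose, 2 of 7 higher and 2 lower at the mid dose, and 4 of 7 higher and 1 lower at the high dose, where Abcc4 was not called. The shares of all tested genes were 11.8% higher and 15.7% lower at the mid dose, and 9.93% and 15.5% at the high dose. Slc7a11 and Srxn1, a cystine carrier and an antioxidant enzyme, rose by 5.15 and 2.03 at the low dose, and Slc7a11 had 2.09 FPKM there in treated and 0.0588 FPKM in vehicle liver, in the authors' deposited table. In OCA over its vehicle, where Abcc4 was called lower, 2 of 6 tested cholangiocyte markers were called higher and 0 lower. Their list summed to 36.7 FPKM in OCA and 28.3 FPKM in OCA vehicle liver. There Abcc12 fell by 1.15, and of 7 tested Nrf2 targets 0 were called higher and 1 lower. With OCA 1.81% of all tested genes were higher and 2.23% lower. The part of duct cells or of the wider errors in the low-dose Abcc4 value was not tested.

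Differences between doses were tested as differences of the fold changes over the shared vehicle group, over all genes usable in both tables. Variances were added although the vehicle group is common to both, so its error is counted in each and the intervals are wider than a direct comparison of doses would give. For mid minus low 1 of 8 exporters was called, where 0.423% of 15354 genes were. It was Abcc4, at -3.05 with a 95% interval of -4.27 to -1.83. At an unadjusted p under 0.05 it was also the only 1 by the implied errors. By the rescaled errors 2 were higher, Abcb11 at 1.28 and Atp8b1 at 0.58, and 1 was lower. For high minus mid 0 of 8 were called, where 0.319% of 15355 genes were, with 0 at an unadjusted p under 0.05 by the implied errors and 2 by the rescaled. For high minus low 0 of 8 were called, where 0.278% of 15456 genes were. By the implied errors 1 had an unadjusted p under 0.05, again Abcc4, at -2.30 with a 95% interval of -3.50 to -1.09. By the rescaled errors 1 was higher, Abcb11 at 1.24, and 1 was lower.

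With rescaled errors, which call 10.3%, 2.32% and 5.64% of all genes for mid minus low, high minus mid and high minus low, Abcc4 was called for mid minus low and high minus low and no exporter for high minus mid. With effects over lean control in place of vehicle the high minus low difference was -2.32 and was called. For Abcb11 the mid minus low difference was 1.28 with an implied interval of -0.68 to 3.23. Its high minus mid difference was -0.04 with an implied interval of -1.65 to 1.58. The rescaled intervals of Abcb11 were 0.32 to 2.23 for mid minus low and -0.83 to 0.76 for high minus mid. For mid minus low both rescaled ends were positive, though the difference was not called. For Slc51b, mid minus low was 0.63 (implied interval -0.99 to 2.24, rescaled -0.16 to 1.42). High minus mid of Slc51b was 0.07 (implied interval -1.35 to 1.49, rescaled -0.63 to 0.77). The implied intervals are wide, in part because the vehicle error enters each. The implied SE is also 2.03 to 2.05 times the rescaled SE used for the fold changes. Similar effects of the doses on Abcb11 and Slc51b are therefore not shown by the missing calls.

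**Figure D4:**
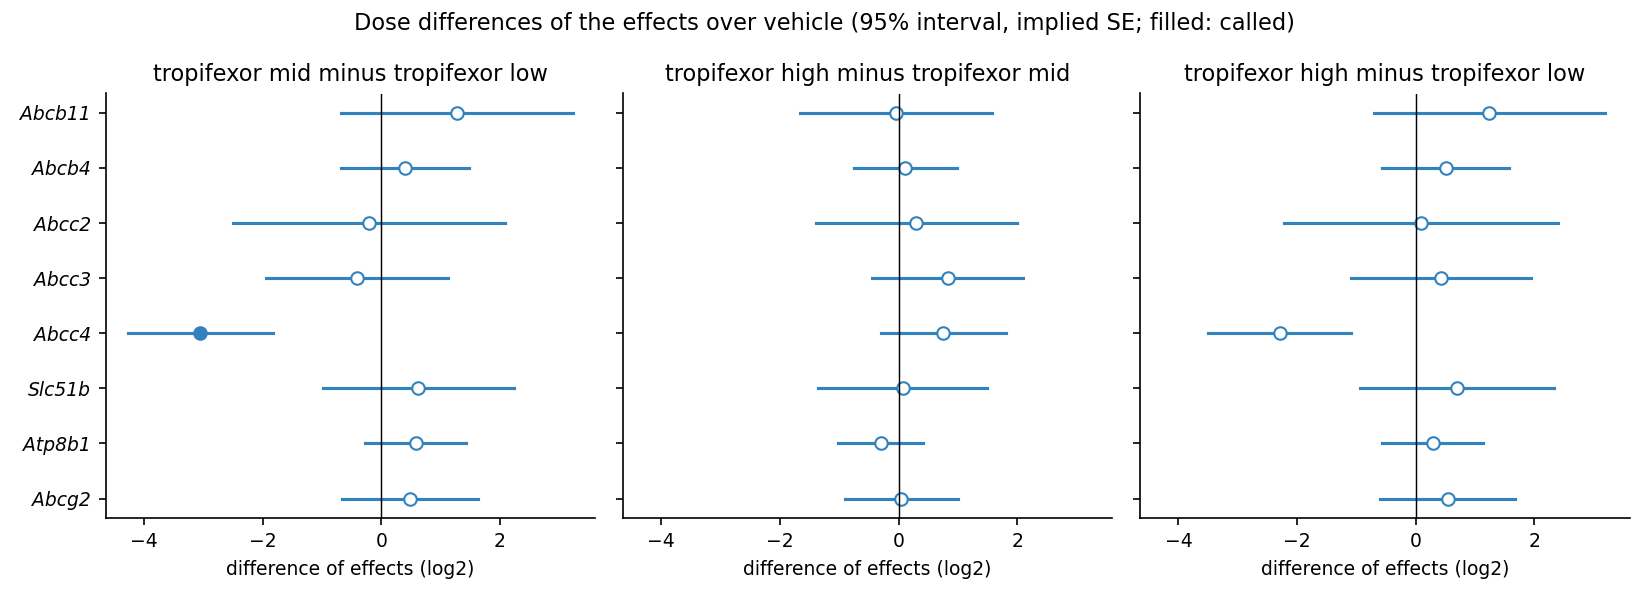
Differences between tropifexor doses in the log2 fold change over vehicle for 8 exporter genes, with 95% intervals from the implied SE; the filled point was called. Abcc4 at -3.05 for mid minus low is the one filled point, and its interval in the high minus low panel, -3.50 to -1.09, also lies below 0.

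OCA was compared with its own vehicle group. Slc51b was the 1 exporter of 8 tested that was called higher, against 1.81% of all 15706 tested genes, and Abcc4 was the 1 called lower, against 2.23%. Slc51b had 24.6 FPKM in OCA liver and 3.73 FPKM in OCA vehicle liver in the authors' deposited table, a 6.59-fold rise (log2 2.72, rescaled SE 0.220, Cuffdiff q = 0.00268). Abcc4 had 0.621 FPKM in OCA liver and 1.12 FPKM in OCA vehicle liver in the authors' deposited table, and fell by 0.86 (SE 0.163, Cuffdiff q = 0.00268).

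The other exporters under OCA gave values without a call. Abcb11 had 253 FPKM in OCA liver and 149.3 FPKM in OCA vehicle liver, a log2 fold change of 0.76 (95% interval 0.18 to 1.34, Cuffdiff q = 0.229), in the authors' deposited table. The values of Abcb4 and Atp8b1 were 0.05 (interval -0.27 to 0.36) and 0.24 (interval 0.00 to 0.48), and those of Abcc3 and Abcg2 were -0.43 and -0.31, in the authors' deposited table. Slc51a was listed at 0 in OCA liver.

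Set beside the tropifexor values, OCA at 25 mg/kg gave 2.72 for Slc51b where tropifexor gave 5.38, 6.01 and 6.08 at 0.1, 0.3 and 0.9 mg/kg, by the authors' deposited table of each. For Abcb4 the same values were 0.05 for OCA and 0.73, 1.12 and 1.23 for tropifexor, and for Atp8b1 0.24 for OCA and 0.82, 1.40 and 1.10 for tropifexor, in the authors' deposited table. Doses and vehicle groups differ between the compounds, and no test was made of these differences.

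Treated NASH liver was also compared with lean liver, which asks how far the exporters stood from the lean level after treatment. After OCA 2 of 8 were called higher and 0 lower by Cuffdiff, against 10.3% and 6.5% of 15208 tested genes (3 and 0 at an unadjusted p under 0.05). After the low, mid and high dose of tropifexor, 4 were called higher each time, against 13.8% of 15937, 11.7% of 15229 and 12.2% of 15443 tested genes. Called lower were 0, 2 and 0 (Cuffdiff, 0, 3 and 0 at an unadjusted p under 0.05), against 10.1%, 11.5% and 15.2%.

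Slc51b was 13.5-fold above lean liver after OCA and 76.3-fold, 118-fold and 123-fold above it after the low, mid and high dose, in the authors' deposited table. Abcb11 had 605 FPKM in mid-dose and 186 FPKM in lean liver, and 609 FPKM in high-dose and 193 FPKM in lean liver, rises of 1.70 and 1.65 (Cuffdiff q = 0.000418 and 0.000346) in the authors' deposited table. Abcb4 was above lean liver in all 4 drug groups, by 0.48 after OCA and by 1.34, 1.73 and 1.84 after the low, mid and high dose in the authors' deposited table. Atp8b1 rose above lean liver after each tropifexor dose, by 0.44 (Cuffdiff q = 0.0294), 1.02 and 0.71 after the low, mid and high dose, and stood at 0.16 (q = 0.446) after OCA, in the authors' deposited table.

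Abcg2, which the diet had raised, stood at 0.32, -0.27, 0.21 and 0.25 relative to lean liver after OCA and the low, mid and high dose of tropifexor, with no call in the authors' deposited table. Abcc3 stood at 0.24, -0.02 and 0.38 after OCA, the low and the high dose without a call, and fell by 0.44 (Cuffdiff q = 0.0469) below lean liver after the mid dose, in the authors' deposited table. Abcc4 rose by 2.26 after the low and fell by 0.80 after the mid dose relative to lean liver, and had 0.04 after OCA and -0.06 after the high dose without a call, in the authors' deposited table.

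Genes that work beside the exporters were read from lists of related genes. Of 6 other canalicular carriers, 2 were called higher and 1 lower at the high dose of tropifexor, against 9.93% and 15.5% of all tested genes. Abcb1a, a drug-exporting P-glycoprotein, had 44.2 FPKM in low-dose and 3.90 FPKM in vehicle liver, 62.4 FPKM in mid-dose and 3.41 FPKM in vehicle liver, and 46.6 FPKM in high-dose and 3.54 FPKM in vehicle liver, in the authors' deposited table. Its rises were 3.50, 4.20 and 3.72 with wide rescaled SEs of 2.08, 1.78 and 1.58, while Slc47a1, a proton-coupled exporter of organic cations, stood at -1.04, -0.47 and -1.18 with a lower call at each dose, in the authors' deposited table.

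Of 6 tested relatives in the Abcc family, 2 were called higher and 1 lower at the high dose, against 9.93% and 15.5% of all tested genes. Abcc5, a nucleotide exporter, rose by 2.11 there and by 1.95 at the low dose in the authors' deposited table. Of 9 genes for trafficking and anchoring of canalicular carriers, 1 was called higher at the high dose (Vipas39, an endosomal sorting protein, 0.51) and 0 lower by Cuffdiff in the authors' deposited table. The median of these 9 was -0.02 at the high dose, while that of all tested genes was -0.05 and that of the 8 exporters 0.71.

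Among 11 nuclear receptors that control bile acid transport, 3 were called higher and 4 lower at the high dose, against 9.93% and 15.5% of all tested genes. Nr1h4, the gene of FXR itself, fell at each dose, with log2 fold changes of -1.49, -1.27 and -1.70 at the low, mid and high dose in the authors' deposited table. Nr0b2, the FXR-induced repressor SHP, had 182 FPKM in high-dose and 29.5 FPKM in vehicle liver with rises of 1.87, 2.55 and 2.63 at the 3 doses in the authors' deposited table. Nr1i2, the xenobiotic receptor PXR, rose as well, by the authors' deposited table, where it stood at 1.53, 2.23 and 1.85.

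Of 6 carriers that take bile acids and other anions or cations into the hepatocyte, 3 were called lower and 1 higher at the high dose. The shares of all tested genes were 15.5% lower and 9.93% higher. At the mid dose 2 of the carriers were lower and 3 higher, against 15.7% and 11.8% of all tested genes. At the low dose 3 were lower and 0 higher, against 5.2% and 6.03%. Slc10a1 (NTCP, the sodium-coupled bile acid uptake carrier) had 23.0 FPKM in high-dose and 234 FPKM in vehicle liver and fell by 3.35, in the authors' deposited table. At the low dose it fell by 1.53, and at the mid dose it stood at 0.23 without a call, in the authors' deposited table. Slco1a1, an organic anion uptake carrier, fell at each dose (log2 -4.48, -2.90 and -6.35 at the low, mid and high dose), while Slc22a7 rose by 2.06 at the mid and 1.65 at the high dose, in the authors' deposited table.

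Of 10 genes of bile acid synthesis, 5 were called lower and 3 higher at the high dose, against 15.5% and 9.93% of all tested genes. At the mid dose 4 were lower and 4 higher, against 15.7% and 11.8%. At the low dose 5 were lower and 1 higher, against 5.2% and 6.03%. Cyp7a1, the rate-limiting enzyme, stood at -4.17, -3.24 and -6.03 at the low, mid and high dose, and Cyp8b1, needed for cholic acid, at -6.68, -5.04 and -8.55, each with a lower call, in the authors' deposited table. Of 4 conjugation genes 1 was called lower at the high dose, the sulfotransferase Sult2a8, and 0 higher by Cuffdiff.

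**Figure D5:**
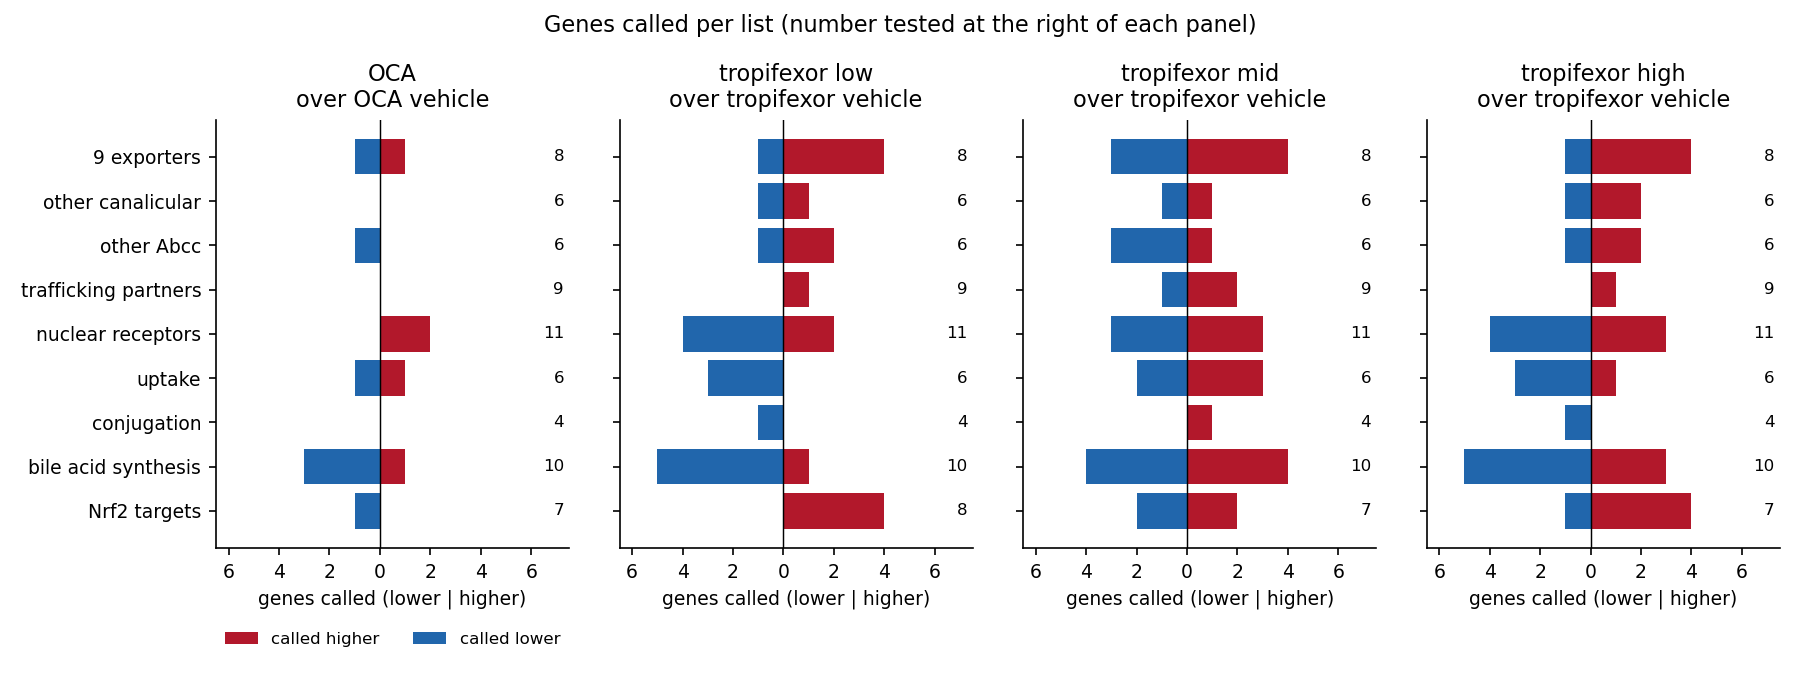
Number of genes called higher (red, right) and lower (blue, left) in each list for OCA and the 3 tropifexor doses over their own vehicle groups, with the number tested at the right of each panel. At the high dose 4 of 8 exporters were called higher and 1 lower, while 5 of 10 bile acid synthesis genes were called lower and 3 higher. Of all tested genes 9.93% were called higher and 15.5% lower at that dose.

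The exporters also differed in the shape of their levels over the 7 groups, taken as log2 over lean control from the 6 comparisons with it. The range was 6.94 for Slc51b, 3.06 for Abcc4, 2.21 for Abcb11, 1.84 for Abcb4, 1.39 for Atp8b1, 1.10 for Abcc3, 1.03 for Abcg2 and 0.46 for Abcc2. Over the 7 groups Pearson's r with Slc51b was 0.93 for Abcb4, 0.90 for Atp8b1 and 0.87 for Abcb11, and -0.52 for Abcc3 and -0.46 for Abcg2. No r was taken for Abcc4, which was under 1 FPKM in some comparisons, or for Abcc2, whose range was under 1. The points share the lean control group, so these values describe shape only.

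Among 2919 genes with at least 1 FPKM in a group of every table and a range of at least 1, the profiles most like Slc51b by r were those of Zfp950, 1700024P16Rik, Gm11832, Acot13 and Epb41l1, with r between 0.991 and 0.995. Those most like Abcb11 were Vwa3b, Asgr2, Gm37336, Tymp and Slc46a3, with r between 0.988 and 0.994. Vwa3b stood at 1.81 over lean liver at the high dose where Abcb11 stood at 1.65, and Zfp950 at 2.77 where Slc51b stood at 6.94. Among the exporters that passed the same filters, Abcb11 had its closest match in Atp8b1, with r = 0.96.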

How the data were processed

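Poly(A) RNA of 28 livers was sequenced from TruSeq Stranded mRNA libraries, per the labels' protocols. STAR 2.5.1b, Cufflinks 2.2.1, Cuffdiff and GRCm38 are named, with no role or order, in the submitters' processing notes. The FPKM values are the authors' deposited Cuffdiff group values, 1 per group, per the file headers. Log2 fold changes, the test statistic (a score), p-values and q-values are the authors' deposited values too, per the file headers. A call is status OK with a deposited q under 0.05. The smallest deposited p was 5e-05. Depth per sample is unknown, and nothing could be refitted over animals. The p-values measure the spread between these samples.

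The implied SE of a fold change is its size over the test statistic. In the median gene the deposited p is narrower than this by a factor of 2.03 to 2.05, taken at p between 0.0002 and 0.9, and dividing by it gives the rescaled SE. As the factor is a median over genes, the rescaled SE of a single gene, such as Abcb1a, can disagree with its deposited call. Effects were compared by a normal test of their difference with implied SEs, adjusted by Benjamini-Hochberg over all usable genes. The same group's FPKM differed between tables by a constant of up to 0.194 (log2), so levels are compared within a table. Apart from that constant, 6356 genes deviated by a median of at most 0.000762 within a group and at least 0.0740 between groups. This normal approximation rests on 4 animals a group and counts the error of the shared group in each effect.

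Exporters and lists were chosen with earlier results of these data known. All exporters are named. From each other list the genes named are up to 4 with the largest called changes, plus Nr1h4 and Nr0b2, and Tmem30a, Rasl12, Gm13613 and the duct markers were added after their values were seen. High-dose counts of the hepatocyte, macrophage, endothelial, stellate, erythroid, intestine and pancreas markers are given below. Promoters are RefSeq's (GRCm38.p6), with overlaps from GENCODE M21. Python 3.11.15, numpy 2.4.6, pandas 2.3.3, scipy 1.17.1 and matplotlib 3.10.9 were used. Alternatives were a stricter q, filters on low FPKM, a pseudocount of 1 FPKM, median centring, other reference tables and the rescaled SE.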

Additional observations from a re-analysis of the deposited data

Results flagged for a closer look

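The effect of tropifexor on Abcc4 differed between the mid and the low dose by -3.05 (log2), by the test of the difference itself. The low-dose value was 1.97 and the mid-dose value -1.08. Abcc4 is a gene of low level, with 3.11 FPKM in low-dose, 0.329 FPKM in mid-dose and between 0.693 and 0.792 FPKM in vehicle liver in the authors' deposited table.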

How the results depend on the processing

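No paired analysis was possible because the tables hold 1 value per group and none per animal, and for the same reason no animal could be left out. Of 192 recomputed fold changes of the exporters, 17 moved by more than 1 rescaled SE, all with a pseudocount of 1 FPKM, which shrinks low genes such as Abcc4. A pseudocount cannot turn a fold change round. Median centring shifted values by at most 0.050 (log2), and the route through lean control by at most 0.019. The direction of the fold changes was therefore not put to a test by these settings. With a q under 0.01 in place of 0.05, the exporters called in the tropifexor vehicle group over lean control numbered 2 in place of 4, without Abcc3 and Atp8b1. With genes of at least 5 FPKM, 3 in place of 5 were called in the OCA vehicle group over lean control and 1 in place of 2 in OCA over its vehicle, because Abcc4, and in the first case Slc51b, were left out by the filter. The Abcc4 calls over tropifexor vehicle were lost in the same way, the low-dose call with at least 5 FPKM and the mid-dose call with at least 1 or 5 FPKM, and the high-dose Abcg2 call was lost at a q under 0.01. For tropifexor high minus low, 1 exporter (Abcc4) in place of 0 was called with rescaled errors and 1 from effects over lean control, and the cause was not tested. The genes most like a member by root mean square difference shared 1 of 5 with those by r for Slc51b and 3 of 5 for Abcb11.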

Other observations

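Fabp6, the ileal bile acid-binding protein and a known FXR target of the gut, was listed at 0 in tropifexor vehicle liver and had 12.4, 4.89 and 16.04 FPKM at the low, mid and high dose in the authors' deposited table. It was chosen after its values were seen. Of the other intestine markers, Slc5a1, a glucose carrier, had 2.22, 0.781 and 1.29 FPKM at the 3 doses and between 0.679 and 0.775 FPKM in vehicle liver in the authors' deposited table, and was called higher at the low and high doses. Fabp2 had 183, 158 and 89.4 FPKM at the 3 doses and between 159 and 182 FPKM in vehicle liver in the authors' deposited table, and was called lower at the high dose.

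At the high dose of tropifexor over vehicle, 9.93% of all tested genes were called higher and 15.5% lower. Of 5 tested hepatocyte markers 0 were called higher and 2 lower, with a summed level of 43220 FPKM in treated and 44319 FPKM in vehicle liver. Of 7 macrophage markers 2 were called lower (142 and 167 FPKM in sum), of 5 endothelial markers 3 (32.7 and 41.6 FPKM), and of 5 stellate cell markers 4 (24.4 and 59.6 FPKM), treated liver being given first, and 0 of these were called higher by Cuffdiff. Of 5 tested erythroid markers 0 were called, of 3 tested intestine markers 2 were higher and 1 lower, and of 2 tested pancreas markers 0 were called. Their part in the exporter values was not tested.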
